A study of Mus musculus with 9 samples.

Results

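The genes described here are the small nucleolar RNA (snoRNA) and small Cajal body-specific RNA (scaRNA) genes with at least 30 counts summed over the 9 libraries of the study. GENCODE M21, an annotation of the mouse genome build GRCm38, gave the gene types. Of 46603 gene identifiers counted, 1558 were of these types, 252 of them had at least 1 count, and 62 reached the minimum and are the members. The members were thus selected on their summed counts over all libraries, not on a difference between groups, and that level is no finding here. All 62 entered the tests, 61 as snoRNA genes and 1, Gm25492, as a scaRNA gene. RNA sequencing had been done on mouse embryonic fibroblasts (MEFs) of BALB/c strain and age 10.5 days of embryonic development, all of them β-actin knockout (Actb, β-actin-/-). The first group was transfected with poly(I:C), an artificial duplex RNA, and the second with poly(dA:dT), an artificial duplex DNA. Both were given at 10 µg/ml with Lipofectamine in Opti-MEM for 6 h, and mock cells received the reagent alone. Each group had 3 libraries. The cells came from 1 laboratory, every library lacks the same gene, and wild-type cells were not analysed here, so nothing below speaks of the knockout itself.

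As background, snoRNAs guide chemical modification of other RNAs, mainly ribosomal RNA, in the nucleolus. Box C/D snoRNAs pair with their target and place the methyltransferase fibrillarin (Fbl) for ribose methylation. Box H/ACA snoRNAs direct the pseudouridine synthase dyskerin (Dkc1), and scaRNAs do the same work on spliceosomal RNAs in Cajal bodies. Most mammalian snoRNAs are not transcribed on their own. They lie in introns of host genes, often genes of ribosomal proteins and translation factors, are freed when the intron lariat is opened and its ends are trimmed, and are kept from decay by their core proteins. Poly(I:C) and poly(dA:dT) stand in for viral RNA and DNA and set off the interferon response in fibroblasts.

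The libraries held between 16082772 and 29219797 counts on genes, of which the members took 8480 in all. A count of 3 in a library corresponded to 0.108 to 0.179 CPM, the count relative to library size after scaling by the trimmed mean of M-values (TMM). Actb was listed at 565 to 924 counts per library, or 29.1 to 34.7 CPM. The fibroblast label was checked against 8 marker genes, among them Col1a1 and Vim. Their summed level was 6420 to 6733 CPM in poly(I:C) libraries, 7275 to 7394 CPM in poly(dA:dT) libraries and 7531 to 7724 CPM in mock libraries. Of the 8 markers, 7 were lower and 1 (Fn1) was higher in poly(I:C) against mock, so marker level moved with treatment. Macrophage markers summed to 5.62 to 7.67, 8.46 to 8.74 and 10.4 to 11.3 CPM in poly(I:C), poly(dA:dT) and mock libraries, with Ptprc at 0 in every library. Endothelial markers were at 4.63 to 4.80, 2.75 to 3.26 and 0.790 to 1.12 CPM in the same order, with Tie1 at 0. Epithelial markers summed to 7.65 to 8.23, 8.24 to 9.41 and 8.81 to 9.85 CPM, and neural markers to 359 to 367, 362 to 392 and 400 to 409 CPM. The part of these markers in the snoRNA results was not tested. In bulk RNA, fewer cells of a type and less RNA per cell cannot be told apart.

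The members were short, 64 to 246 bases with a median of 93.5. By symbol, 18 were box C/D genes (Snord), 8 were box H/ACA genes (Snora), and 36 had a provisional symbol that names no class. Their sequences were searched on the RNA strand for the letters of the boxes, the C box as TGATGA within the first 25 bases together with the D box as CTGA within the last 15, and the ACA box as ACA within the last 8. The C and D pair was found in 10 of the 18 genes named Snord, in 0 of the 8 named Snora and in 14 of the 36 without a class name. Of all 1558 annotated genes of these types, 311 held it. ACA near the end was found in 8 of 8 Snora, 2 of 18 Snord and 20 of 36 genes without a class name, against 47.6% of all 1558. Length separated the boxes: the C and D pair stood in 23 of 36 members of up to 100 bases and in 1 of 26 longer ones, and ACA in 7 of 36 and 23 of 26. These matches describe letters in the annotated sequence only, and a variant box is missed by an exact search.

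The box C/D sequences on which the results turn are shown first, with the letters matched as C and D box in capitals. In Snord49b an overlapping TGATGA follows the marked one, and the search marked the first. Snord104 lies at chr11:106500993-106501062 (+), Gm23130 at chr10:23786470-23786543 (-) in Rps12, Snord49a at chr11:62603450-62603521 (+) and Snord49b at chr11:62603079-62603150 (+), both in 2410006H16Rik, and Gm24357 at chr9:15315522-15315595 (+) in Taf1d. All sequences are GENCODE M21 transcripts on GRCm38, written 5′ to 3′ as DNA letters. Snord104 and Gm23130 are shown because they were called below, and the other 3 because their hosts moved apart from them.
Snord104: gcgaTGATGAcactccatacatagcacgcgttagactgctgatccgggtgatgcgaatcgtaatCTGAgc
Gm23130: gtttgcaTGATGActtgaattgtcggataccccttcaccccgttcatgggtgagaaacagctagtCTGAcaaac
Snord49a: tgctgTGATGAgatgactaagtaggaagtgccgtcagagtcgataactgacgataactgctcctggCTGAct
Snord49b: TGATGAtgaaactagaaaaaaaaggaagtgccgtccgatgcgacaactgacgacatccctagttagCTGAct
Gm24357: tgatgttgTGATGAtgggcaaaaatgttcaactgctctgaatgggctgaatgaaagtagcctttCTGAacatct

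The longer sequences follow, with the ACA near the 3′ end in capitals where it was found. They are 6 of the 7 members of this length called in poly(I:C) against mock, shown so that their common layout can be compared. Snora2b lies at chr15:98526346-98526482 (-) in Kansl2, Snora33 at chr10:23785347-23785475 (-) in Rps12, Snora28 at chr12:111540941-111541067 (+) in Eif5, Snora57 at chr19:8888538-8888685 (-), Snora17 at chr2:26639190-26639321 (-) and AF357399 at chr7:28351508-28351632 (+) in Rps16. AF357399 has neither box by this search, and its symbol names no class.
Snora2b: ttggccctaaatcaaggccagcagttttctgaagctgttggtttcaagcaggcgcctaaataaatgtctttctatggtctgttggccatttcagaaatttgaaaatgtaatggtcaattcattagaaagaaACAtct
Snora33: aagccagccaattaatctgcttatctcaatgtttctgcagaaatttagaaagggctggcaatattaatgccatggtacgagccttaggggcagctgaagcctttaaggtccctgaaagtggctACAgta
Snora28: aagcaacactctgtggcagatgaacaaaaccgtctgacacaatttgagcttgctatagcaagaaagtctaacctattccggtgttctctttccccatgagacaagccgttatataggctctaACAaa
Snora57: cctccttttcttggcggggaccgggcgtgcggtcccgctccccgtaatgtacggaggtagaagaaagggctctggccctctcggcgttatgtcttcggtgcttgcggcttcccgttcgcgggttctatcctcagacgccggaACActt
Snora17: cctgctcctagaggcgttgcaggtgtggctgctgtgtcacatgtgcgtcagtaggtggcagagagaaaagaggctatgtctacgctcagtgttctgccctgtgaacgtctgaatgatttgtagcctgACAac
AF357399: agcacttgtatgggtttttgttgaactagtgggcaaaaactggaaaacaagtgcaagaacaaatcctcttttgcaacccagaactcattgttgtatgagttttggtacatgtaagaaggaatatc

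Of the 62 members, 57 lay inside a gene of another type on the same strand, spread over 34 such hosts, and 30 of the 34 hosts code for protein. Ribosomal protein genes made up 14 hosts and held 21 members. The non-coding gene Snhg1 held 8 members, Taf1d held 7, and Rps12, Rpl4, Rpl17 and 2410006H16Rik held 3 each. Snhg1 itself was not analysed here, which left 49 members with 33 counted hosts. The 5 members with no host in GENCODE M21 were Snord104, Snora57, Snora17, Gm23823 and Gm25604. In this annotation 27 members overlapped an exon of a host or other gene and 23 lay wholly inside one. Whether those exons belong to transcripts that retain an intron was not examined. The rule by which reads over such positions were counted is not known here, and the kit does not mark strand. At least 90% identity with another snoRNA gene was found for 15 members, among them Snora57 (95.9% with Gm26132, 2 summed counts), Snora68 (93.2% with Gm22661, 7 counts), Snora2b (92.0%), Snora17 (91.7%), Snora33 (91.5%) and Snord58b (94.3%), so counts of these are uncertain by reads that fit both copies.

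Summed over all members, the level counted on snoRNA and scaRNA genes was lower in both treatments than in mock cells. The members totalled 37.6, 38.9 and 37.1 CPM in the 3 poly(I:C) libraries, 38.5, 38.7 and 41.6 CPM in the poly(dA:dT) libraries and 50.7, 48.9 and 48.8 CPM in the mock libraries. Neither treated group overlapped mock, while the 2 treated groups overlapped each other. The means were 37.9 ± 0.909, 39.6 ± 1.73 and 49.5 ± 1.02 CPM (SD, n = 3 each), a ratio to mock of 0.765 for poly(I:C) and 0.8 for poly(dA:dT). Relative to plain total counts the ratios were 0.835 and 0.843, also without overlap with mock. Without the 3 most counted members, Snord22, Snord104 and Gm22744, the totals were 28.6 to 29.8, 28.97 to 30.4 and 35.7 to 38.2 CPM, again with mock apart. The sum of the 35 members that overlap no exon of another gene differed between treatments. It was 13.5 to 13.6 CPM with poly(I:C), 14.7 to 17.0 CPM with poly(dA:dT) and 16.6 to 19.4 CPM in mock, so that poly(I:C) stood apart from mock and poly(dA:dT) overlapped it. Snord104 is among the 35. Its own means were 1.99, 3.72 and 4.76 CPM in that order, beside 13.6, 15.8 and 17.6 CPM for the sum. Much of the difference thus lay in this gene, and the sum without it was not taken. The 27 members that overlap an exon summed to 23.5 to 25.3, 22.7 to 24.6 and 31.3 to 32.2 CPM, with both treatments apart from mock. No p-value is given for these sums, since the members were chosen with results of these data known.

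**Figure D1:**
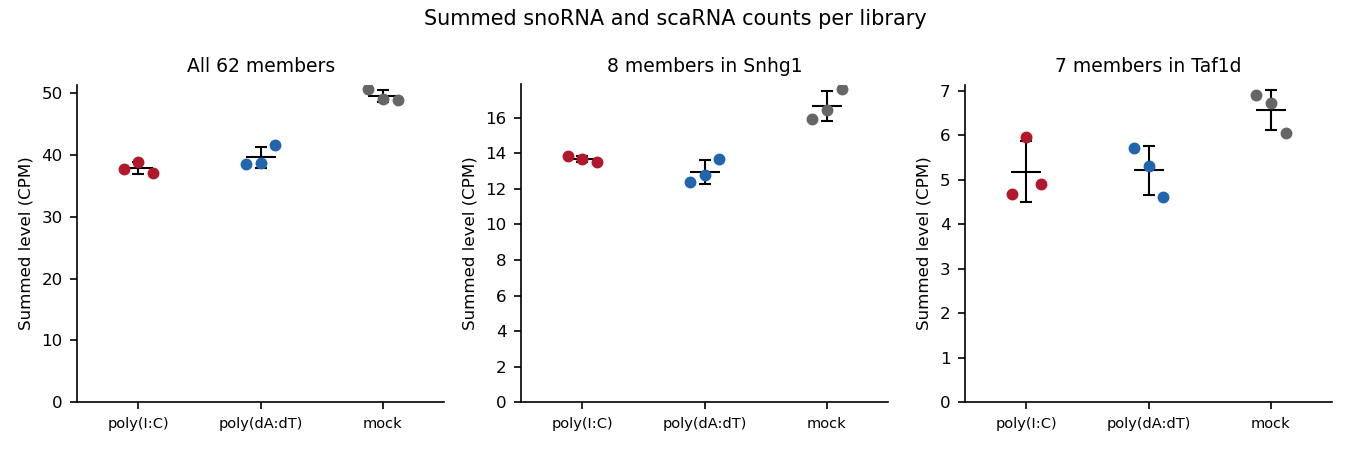
Summed level of snoRNA and scaRNA members in CPM (vertical axis) in each library (points) with mean and SD (black), for all 62 members, the 8 in Snhg1 and the 7 in Taf1d. All poly(I:C) and poly(dA:dT) libraries lie below all mock libraries in each panel, with all-member means of 37.9, 39.6 and 49.5 CPM.

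In poly(I:C) against mock, edgeR's quasi-likelihood test called 9 members lower and 2 higher at a Benjamini-Hochberg adjusted p below 0.05, over 15734 genes tested. Among all genes tested 70.9% were called, 33.6% lower and 37.3% higher. Since few counts limit what can be called, the 5132 genes with 31 to 979 summed counts, the span of the members, are set beside them as well: 46% were called, 6.88% lower and 39.1% higher. The fitted log2 fold change was negative for 50 of 62 members with a median of -0.34. The median was 0.06 over all genes tested and 0.51 in the genes of the same span. In 17 members the 2 groups did not overlap, 14 of them lower with poly(I:C), against 72.3% of all genes and 50% of genes of that span without overlap. DESeq2 called 5 lower and 1 higher. The named Snora genes made up 6 of the 9 lower calls, and 6 of 8 Snora were lower and 0 higher, with a median log2 fold change of -1.11. Of the 18 named Snord, 1 was lower and 2 were higher, with a median of -0.28. The count of lower Snora genes was 3 of 8 with DESeq2 or without mock replicate 1, and 4 of 8 with total-count scaling, without a filter, or without mock replicate 3, poly(I:C) replicate 1 or poly(I:C) replicate 2. The difference between the classes was not tested. By length, 7 of 26 members over 100 bases and 2 of 36 shorter ones were lower, and with DESeq2 or without mock replicate 1 the count of longer ones was 4 of 26. These 7 were the 6 Snora genes and AF357399. Of the 20 members without a class name that held ACA near the end, none was among the 9 lower calls. The pattern is thus that of the named Snora genes and was not seen in all members with ACA.

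**Figure D2:**
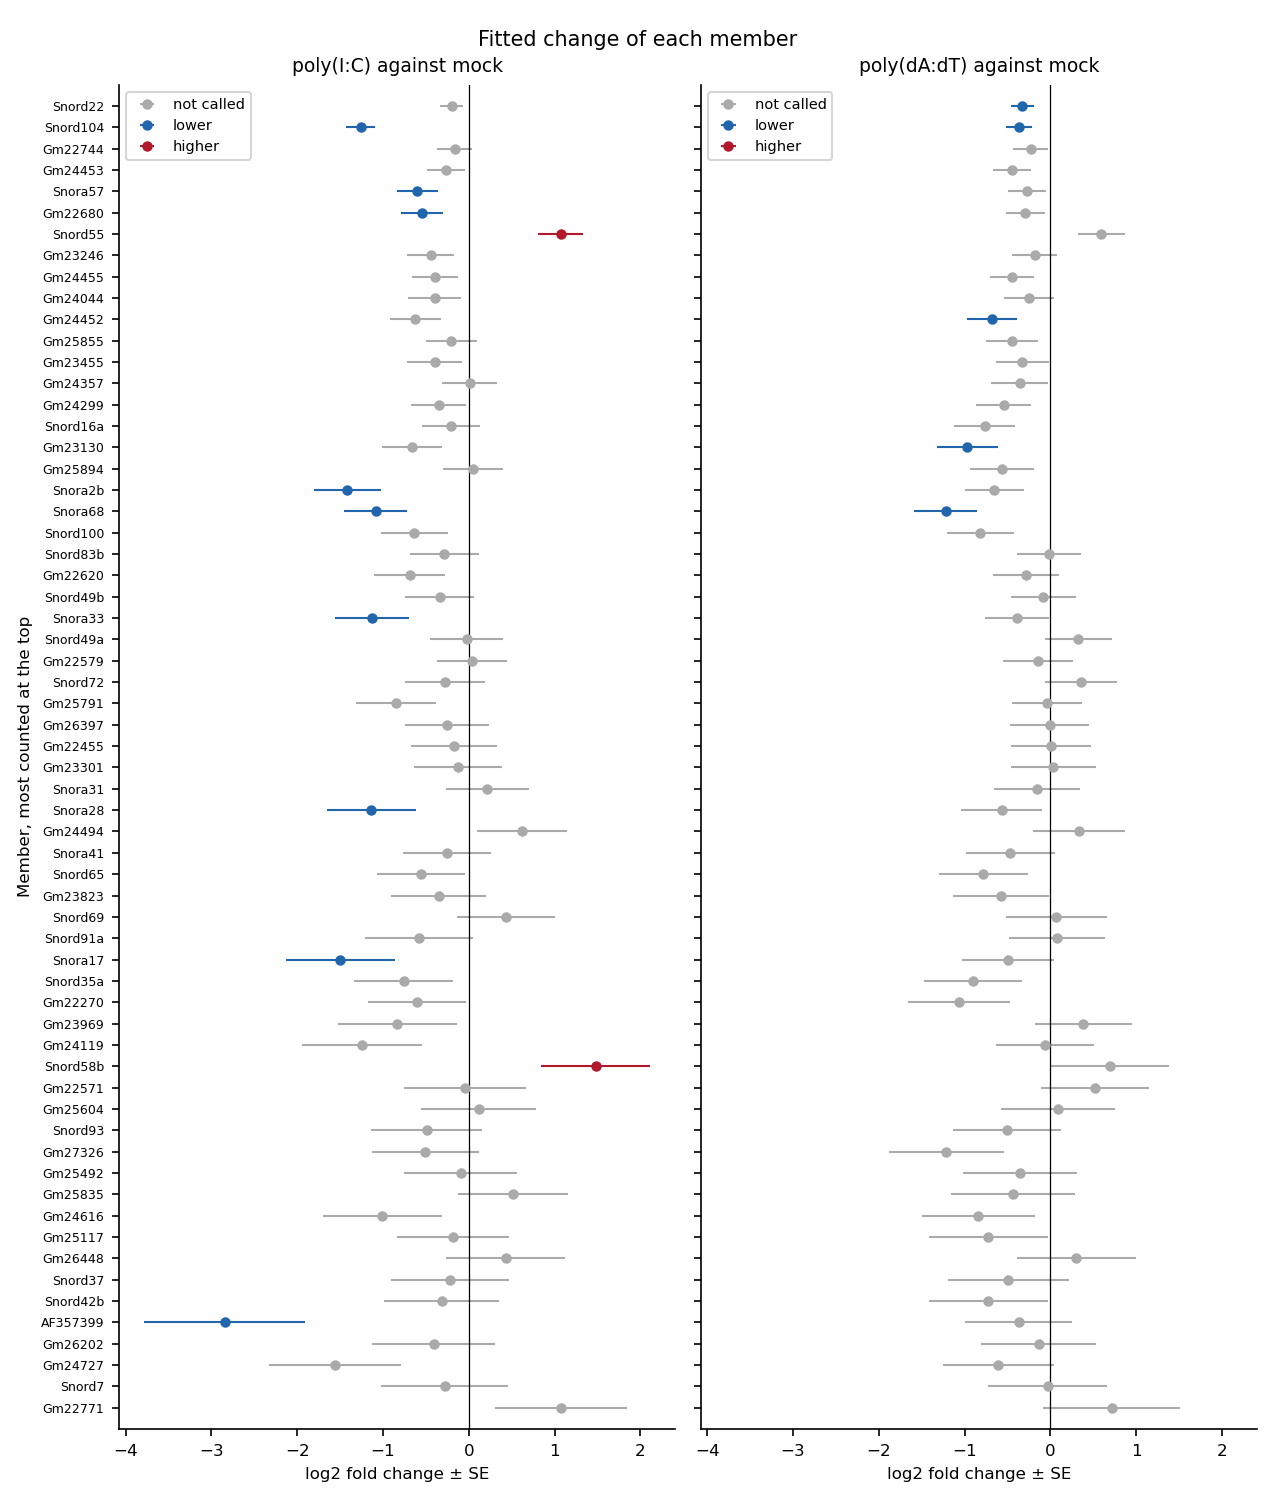
Fitted log2 fold change with SE (horizontal axis) of the 62 members, most counted at the top, for poly(I:C) against mock (left) and poly(dA:dT) against mock (right), with the calls in colour. Most points lie left of 0, 50 of 62 on the left panel and 48 of 62 on the right, and error bars widen down the panel as counts fall.

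Snord104 showed the clearest change among the members. This box C/D RNA, whose human homologue guides methylation of the large-subunit ribosomal RNA, was at 1.73, 2.27 and 1.97 CPM with poly(I:C), 3.50, 3.47 and 4.18 CPM with poly(dA:dT) and 5.4, 4.37 and 4.53 CPM in mock. The 3 groups did not overlap, with poly(I:C) lowest and mock highest. The log2 fold change was -1.26 ± 0.17 (SE) in poly(I:C) against mock (edgeR adjusted p = 6.71e-11), a 2.39-fold lower level. It was called in that comparison under every scaling, filter, test and left-out library that was run. In poly(I:C) against poly(dA:dT) it was also lower, by -0.89 ± 0.18 (edgeR adjusted p = 7.36e-06). In poly(dA:dT) against mock it was lower by -0.37 ± 0.15 (edgeR adjusted p = 0.032), a call that ended with DESeq2, with total-count scaling, and when poly(dA:dT) replicate 1, poly(dA:dT) replicate 2 or mock replicate 1 was left out, where the fitted values over the left-out libraries ranged from -0.46 to -0.25. Its per-length level, 49.9 CPM per kilobase over all libraries, was above that of Snord22, 39.1 CPM per kilobase, although Snord22 had more counts. The genes are only 70 and 126 bases long, and Snord22 lies wholly inside annotated Snhg1 exons while Snord104 overlaps none. Reads on them may thus have been counted unlike, which was not tested, and the ranking is a description only. RefSeq places Snord104 within the non-coding gene Gm36220, which GENCODE M21 does not list as its host.

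Snord55 ran the other way. This is a box C/D RNA whose human homologue guides methylation of the large-subunit ribosomal RNA. Its level was 1.78, 1.67 and 2.45 CPM with poly(I:C), 1.49, 1.24 and 1.44 CPM with poly(dA:dT) and 0.899, 0.998 and 0.843 CPM in mock. The groups did not overlap, and their order was the reverse of that of Snord104. It was 2.1-fold higher in poly(I:C) against mock (log2 1.07 ± 0.26, SE, edgeR adjusted p = 1.38e-04), a call kept under every scaling, filter, test and left-out library run. The value in poly(dA:dT) against mock, 0.59 ± 0.27 (edgeR adjusted p = 0.0638), missed the threshold and passed it with total-count scaling. Snord58b, a box C/D RNA in Rpl17, a large-subunit ribosomal protein gene, was the other member called higher with poly(I:C), on 8, 6 and 8 counts against 3, 4 and 2 counts in mock. Poly(dA:dT) libraries had 4, 3 and 7 counts. Its log2 fold change of 1.48 ± 0.64 (SE, edgeR adjusted p = 0.0319) lost the call with DESeq2, with filterByExpr, without a filter, and without mock replicate 1 or 3 or poly(I:C) replicate 1 or 3, with fitted values of 1.29 to 1.72 over the left-out libraries.

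Among box H/ACA RNAs, Snora68 was the one lower in both treatments. Its human homologue guides pseudouridylation of the large-subunit ribosomal RNA. It was at 0.482, 0.600 and 0.418 CPM with poly(I:C), 0.432, 0.643 and 0.305 CPM with poly(dA:dT) and 1.08, 1.25 and 0.896 CPM in mock. Mock stood apart from both treated groups, which overlapped. The log2 fold change against mock was -1.08 ± 0.37 (SE) for poly(I:C) (edgeR adjusted p = 0.00609) and -1.22 ± 0.37 for poly(dA:dT) (edgeR adjusted p = 0.0032). Both calls were kept under every scaling, filter, test and left-out library run. Snora68 lies wholly inside an annotated exon of another gene in GENCODE M21.

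Snora2b, in a gene of the NSL histone acetyltransferase complex, Kansl2, was at 0.241, 0.471 and 0.478 CPM with poly(I:C), 0.912, 0.729 and 0.392 CPM with poly(dA:dT) and 0.935, 1.21 and 1.05 CPM in mock. It was 2.66-fold lower in poly(I:C) against mock (log2 -1.41 ± 0.39, SE, edgeR adjusted p = 7.65e-04), and no scaling, filter, test or left-out library that was run ended this call. In poly(dA:dT) against mock the value was -0.65 ± 0.34 (edgeR adjusted p = 0.111). Snora33, in Rps12, a small-subunit ribosomal protein gene, had 10, 6 and 5 counts with poly(I:C), 10, 15 and 14 with poly(dA:dT) and 21, 20 and 13 in mock. It was lower in poly(I:C) against mock by log2 -1.13 ± 0.43 (SE, edgeR adjusted p = 0.0143). That call ended without poly(I:C) replicate 2, and the fitted values over left-out libraries were -1.45 to -0.92.

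Snora57, whose human homologue guides pseudouridylation of the small-subunit ribosomal RNA, was the most counted box H/ACA member. It was at 1.64, 1.03 and 1.43 CPM with poly(I:C), 1.82, 1.67 and 1.61 CPM with poly(dA:dT) and 2.48, 1.70 and 1.90 CPM in mock, with poly(I:C) just below the mock libraries. The log2 fold change in poly(I:C) against mock was -0.60 ± 0.24 (SE, edgeR adjusted p = 0.0191). Snora28, in the translation initiation factor gene Eif5, had 4, 7 and 3 counts with poly(I:C), 5, 6 and 12 with poly(dA:dT) and 13, 12 and 11 in mock (log2 -1.13 ± 0.52 in poly(I:C) against mock, SE, edgeR adjusted p = 0.0457). Snora17 had 1, 4 and 3 counts with poly(I:C), 10, 5 and 3 with poly(dA:dT) and 11, 8 and 8 in mock (log2 -1.50 ± 0.64, SE, edgeR adjusted p = 0.0297). These 3 calls were lost with DESeq2 and without mock replicate 1. Those of Snora57 and Snora28 were lost with total-count scaling too, those of Snora28 and Snora17 without a filter, that of Snora17 with filterByExpr, and that of Snora28 with upper-quartile scaling. Leaving out poly(I:C) replicate 2 also ended the call of Snora57, mock replicate 3 or poly(I:C) replicate 1 that of Snora17, and every mock library, poly(I:C) replicate 1 or poly(I:C) replicate 3 that of Snora28. Over the left-out libraries the fitted values were -0.77 to -0.40 for Snora57, -1.42 to -1.02 for Snora28 and -1.78 to -1.10 for Snora17. The other 2 Snora genes were not called, with log2 values in poly(I:C) against mock of 0.22 ± 0.49 for Snora31 and -0.25 ± 0.51 for Snora41 (SE).

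AF357399, in the small-subunit ribosomal protein gene Rps16, had the largest fitted fall, on few reads. It had 2, 0 and 0 counts with poly(I:C), 5, 2 and 7 with poly(dA:dT) and 3, 9 and 7 in mock. Scaled to library size, its summed counts in poly(I:C) were 0.123 of those in mock, with a 95% interval of 0.0138 to 0.508 for counting error only. Against poly(dA:dT) the ratio was 0.158 (0.0174 to 0.686). The edgeR adjusted p was 0.00474 against mock and 0.0255 against poly(dA:dT), and filterByExpr would not have tested it. The call against poly(dA:dT) also ended with DESeq2 and without poly(I:C) replicate 2 or 3 or poly(dA:dT) replicate 1 or 3. The fitted log2 value, -2.84 in poly(I:C) against mock, was -5.62 without poly(I:C) replicate 1, the library with both counts.

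**Figure D3:**
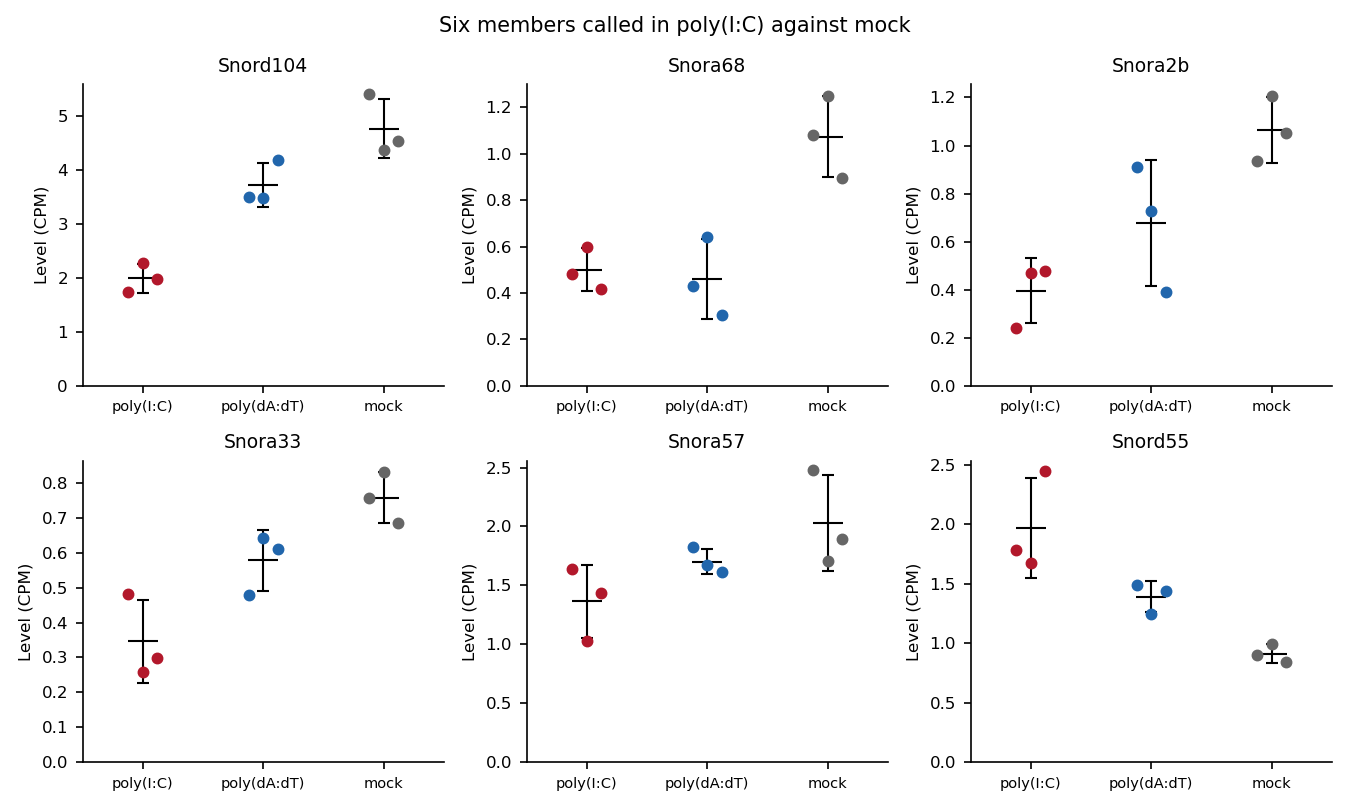
Level in CPM (vertical axis, from 0) of Snord104, Snora68, Snora2b, Snora33, Snora57 and Snord55 in each library (points) with mean and SD (black). Snord104 falls in 3 separate steps of 1.99, 3.72 and 4.76 CPM in poly(I:C), poly(dA:dT) and mock, and Snord55 shows the opposite order at 1.97, 1.39 and 0.913 CPM.

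In poly(dA:dT) against mock, edgeR called 5 members lower and 0 higher, where 47.8% of all genes tested were called, 23.6% lower and 24.2% higher. In the 5132 genes of the members' span of counts 16.5% were called, 1.97% lower and 14.6% higher. At an unadjusted p below 0.05, edgeR had 8 members lower and 1 higher, and DESeq2 had 5 and 0, of which 2 lower passed after adjustment. Fitted values were negative for 48 of 62 members with a median of -0.34. The median was 0.02 over all genes tested and 0.18 for genes of the same span. The groups did not overlap in 12 members, 11 of them lower, beside 53% of all genes and 24.4% of genes of that span. Besides Snora68 and Snord104, the called members were Gm23130 (log2 -0.97 ± 0.35, SE, edgeR adjusted p = 0.0175), Gm24452 (-0.68 ± 0.29, edgeR adjusted p = 0.0472) and Snord22 (-0.33 ± 0.13, edgeR adjusted p = 0.0343). The count of 5 was 2 without poly(dA:dT) replicate 1, and 3 without any 1 mock library or poly(dA:dT) replicate 2. The call of Gm23130 ended when poly(dA:dT) replicate 1 or mock replicate 3 was left out, with fitted values of -1.08 to -0.77 over the left-out libraries. Gm23130, which holds both box C/D motifs and lies in Rps12, had 9, 14 and 14 counts with poly(dA:dT) and 26, 23 and 27 in mock. The poly(I:C) libraries had 16, 9 and 16 counts, and the value there was -0.67 ± 0.35 (SE, edgeR adjusted p = 0.0802). All 3 members in Rps12, with Snord100 as the third, summed to 1.20 to 1.98, 1.15 to 1.93 and 2.66 to 2.74 CPM in poly(I:C), poly(dA:dT) and mock, with mock apart.

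The direct comparison of poly(I:C) with poly(dA:dT) called 2 members lower, Snord104 and AF357399, and 0 higher, where 58.3% of all genes tested were called, 29.9% lower and 28.4% higher. In the genes of the members' span 32.3% were called, 4.6% lower and 27.7% higher. At an unadjusted p below 0.05 edgeR and DESeq2 each had 2 lower and 0 higher, and DESeq2 kept Snord104 after adjustment. The median log2 value of the members was 0.06, and 28 of 62 were negative. The median was 0.01 over all genes tested and 0.33 for genes of the same span. For the other members the 2 treatments were not distinguished at this depth. The groups did not overlap in 6 members, beside 61.9% of all genes and 39.4% of genes of that span. Both comparisons with mock share the mock libraries, so their likeness is not counted as a result.

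The 8 members in Snhg1 form the most counted cluster, on chromosome 19, and include Snord22, the homologue of U22, which is needed in Xenopus for processing of the small-subunit ribosomal RNA. They summed to 13.8, 13.7 and 13.5 CPM with poly(I:C), 12.4, 12.8 and 13.7 CPM with poly(dA:dT) and 15.9, 16.4 and 17.6 CPM in mock, so that both treatments lay below mock. Singly the changes were small. Snord22 was at 4.82, 5.10 and 4.42 CPM with poly(I:C), 4.08, 4.37 and 4.75 CPM with poly(dA:dT) and 5.00, 5.53 and 6.22 CPM in mock, and the poly(I:C) value of -0.20 ± 0.13 (SE, edgeR adjusted p = 0.173) was not called. Its call with poly(dA:dT) was lost with DESeq2, with total-count scaling, without a filter, and when poly(dA:dT) replicate 1 or 2, or mock replicate 2 or 3, was left out, with fitted values of -0.41 to -0.25. Gm24452 had 13, 24 and 16 counts with poly(I:C), 20, 13 and 23 with poly(dA:dT) and 36, 32 and 27 in mock, and its poly(dA:dT) call was lost with DESeq2, with total-count or upper-quartile scaling, without a filter, and without any 1 mock library or poly(dA:dT) replicate 2, with fitted values of -0.84 to -0.45. Gm22680 was lower with poly(I:C) (-0.54 ± 0.24, SE, edgeR adjusted p = 0.0398), at 1.40, 1.07 and 1.61 CPM against 1.62, 1.91 and 2.42 CPM in mock. That call was lost with DESeq2, with total-count scaling, and without mock replicate 2 or 3 or poly(I:C) replicate 1 or 2, with fitted values of -0.68 to -0.38. The remaining 5 were not called in either comparison. All 8 lie wholly inside annotated exons of Snhg1, whose own level is not analysed here.

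A wide contrast between members and host was in Taf1d, which encodes a subunit of the TBP complex that recruits RNA polymerase I to ribosomal DNA. Taf1d was at 173.1, 176.3 and 166.1 CPM with poly(I:C), 95.5, 97.3 and 99.9 CPM with poly(dA:dT) and 37.2, 35.9 and 37.5 CPM in mock. Its log2 fold change against mock was 2.22 ± 0.04 for poly(I:C) (edgeR adjusted p = 3.66e-89) and 1.40 ± 0.04 for poly(dA:dT) (edgeR adjusted p = 3.08e-63). Its 7 members summed to 4.67, 5.96 and 4.90 CPM with poly(I:C), 5.71, 5.31 and 4.62 CPM with poly(dA:dT) and 6.91, 6.74 and 6.06 CPM in mock. The host was thus several times higher in treated cells, while the members' sum under TMM scaling lay below mock in every treated library. Relative to plain total counts the poly(I:C) libraries overlapped mock, at 4.86 to 6.21 against 5.80 to 6.57, and the poly(dA:dT) libraries did not. None of the 7 was called by edgeR or DESeq2 in either comparison, and 0 of 7 had an unadjusted p below 0.05. In poly(I:C) against mock their fitted values ran between -0.85 ± 0.46 (SE, Gm25791) and 0.04 ± 0.41 (Gm22579), and in poly(dA:dT) against mock between -0.54 ± 0.32 (Gm24299) and -0.04 ± 0.41 (Gm25791). Per 1000 Taf1d counts of the same library, a ratio that does not depend on scaling between libraries, the members had 27.0, 33.8 and 29.5 counts with poly(I:C), 59.8, 54.6 and 46.3 with poly(dA:dT) and 185.5, 187.5 and 161.7 in mock. The means were 30.1 ± 3.43, 53.6 ± 6.83 and 178.2 ± 14.3 (SD, n = 3 each), a ratio to mock of 0.169 and 0.299, with no overlap between any groups. All 7 lie wholly inside annotated Taf1d exons.

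The non-coding host 2410006H16Rik, with Snord49a, Snord49b and Snord65, was also higher in treated cells, with fewer member counts per host count. The host was at 208.8 ± 3.91 CPM with poly(I:C), 152.6 ± 1.97 CPM with poly(dA:dT) and 95.6 ± 5.02 CPM in mock (SD, n = 3 each), log2 fold changes against mock of 1.12 ± 0.03 (SE, edgeR adjusted p = 5.28e-66) and 0.67 ± 0.03 (edgeR adjusted p = 2.79e-41). Its members summed to 0.986 to 1.54, 1.34 to 1.66 and 1.46 to 1.76 CPM, with all groups overlapping. Snord49a, whose human homologue guides methylation of the large-subunit ribosomal RNA, had 11, 10 and 10 counts with poly(I:C), 10, 17 and 17 with poly(dA:dT) and 17, 11 and 9 in mock. Of these members 0 of 3 were called by edgeR or DESeq2 in the comparisons with mock, and 0 of 3 had an unadjusted p below 0.05. Per 1000 host counts they had 7.53, 4.64 and 7.15 with poly(I:C), 8.68, 10.2 and 10.9 with poly(dA:dT) and 17.6, 15.1 and 17.5 in mock, without overlap. None of these members overlaps an exon of another gene.

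**Figure D4:**
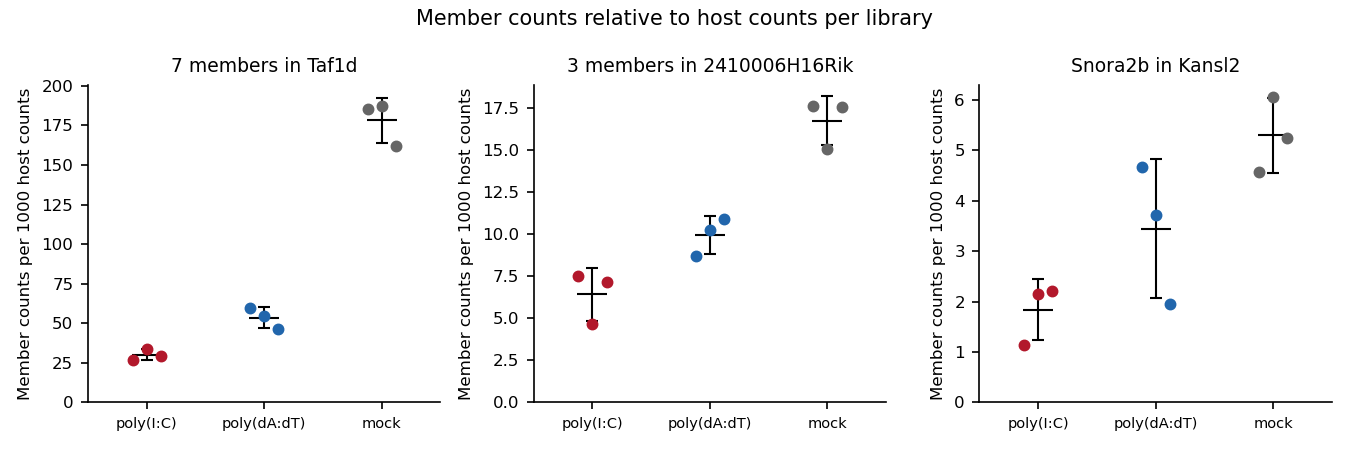
Member counts per 1000 host counts of the same library (vertical axis, from 0; points are libraries, black marks mean and SD) for the 7 members in Taf1d, the 3 in 2410006H16Rik and Snora2b in Kansl2. The mean ratios are lowest with poly(I:C) (30.1, 6.44 and 1.84) and highest in mock (178.2, 16.7 and 5.30), and for Kansl2 the poly(dA:dT) libraries overlap both. The Taf1d members and Snora2b overlap annotated exons of their hosts, and those in 2410006H16Rik do not.

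Ribosomal protein hosts mostly fell. Of the 14, 13 were lower and 1, Rpl3, was higher in both comparisons with mock, with medians of -0.44 for poly(I:C) and -0.22 for poly(dA:dT), and the same counts held under all 4 scalings. Beside them, 33.6% of all genes tested were lower with poly(I:C) and 23.6% with poly(dA:dT). Rps12 was at 1060.2 ± 20.4 CPM with poly(I:C), 1208.5 ± 38.9 CPM with poly(dA:dT) and 1350.4 ± 12.1 CPM in mock (SD, n = 3 each). Its 3 members per 1000 Rps12 counts were at 1.84, 1.12 and 1.498 with poly(I:C), 0.92, 1.64 and 1.42 with poly(dA:dT) and 1.95, 1.99 and 2.03 in mock, so they were lower than their lower host. All 3 lie wholly inside annotated Rps12 exons. Rpl17 was at 390.4 ± 8.47, 452.0 ± 5.59 and 509.1 ± 7.85 CPM in the same order. Its 3 members, with Snord58b among them, had 2.54, 1.65 and 2.5 counts per 1000 Rpl17 counts with poly(I:C), 2.37, 0.656 and 2.22 with poly(dA:dT) and 1.46, 1.46 and 1.16 in mock, with poly(I:C) above mock and poly(dA:dT) overlapping it. The 21 members in ribosomal protein genes together had 0.813 ± 0.0182, 0.699 ± 0.0587 and 0.759 ± 0.0396 counts per 1000 host counts (SD, n = 3 each), with each treatment overlapping mock.

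Over all 33 counted hosts, 9 were higher and 22 lower in poly(I:C) against mock, and 7 higher and 22 lower in poly(dA:dT) against mock, with 10 and 20, and 8 and 20, under total-count scaling. Among all genes tested, under TMM scaling, 37.3% were higher and 33.6% lower with poly(I:C), and 24.2% and 23.6% with poly(dA:dT). The members' median log2 fold change with poly(I:C) was -0.34 where the host was called higher (18 members, 10 of them in Taf1d and 2410006H16Rik) and -0.28 where it was called lower (29 members). Over all 49 pairs 29 members had a lower fitted value than their host, and outside Taf1d 22 of 42 did, with a median difference of -0.05. In poly(dA:dT) against mock the counts were 35 of 49 and 28 of 42. Kansl2 was at 215.1 ± 4.1, 197.2 ± 2.77 and 201.3 ± 2.86 CPM, called higher with poly(I:C) at a log2 fold change of 0.10 and not called with poly(dA:dT), while Snora2b per 1000 Kansl2 counts was 1.84 ± 0.602, 3.45 ± 1.38 and 5.30 ± 0.744 (SD, n = 3 each). Eif5 had a log2 value of -0.03 ± 0.02 in poly(I:C) against mock (SE, edgeR adjusted p = 0.243) and of 0.09 under total-count scaling, where it was called higher. Of the bases of Snora2b, 67.2% lie in annotated Kansl2 exons, and Snora28 lies wholly inside an annotated Eif5 exon. All 49 members summed over their 33 hosts gave 0.986 ± 0.0486, 0.900 ± 0.0376 and 1.01 ± 0.0365 counts per 1000, with poly(I:C) overlapping mock and poly(dA:dT) below it. For members that overlap no exon of another gene the log2 ratio to mock was instead above 0, at 0.27 for poly(I:C) and 0.12 for poly(dA:dT). That set holds Snord55, with 117 summed counts with poly(I:C) and 65 in mock, and the ratio without it was not taken. Snord104 has no host in GENCODE M21 and does not enter. Ratios of summed counts weigh each host by its counts. In mock replicate 1 Taf1d had 1035 counts and Rpsa 66493, so the rise of Taf1d hardly enters the ratio over all 49 members.

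**Figure D5:**
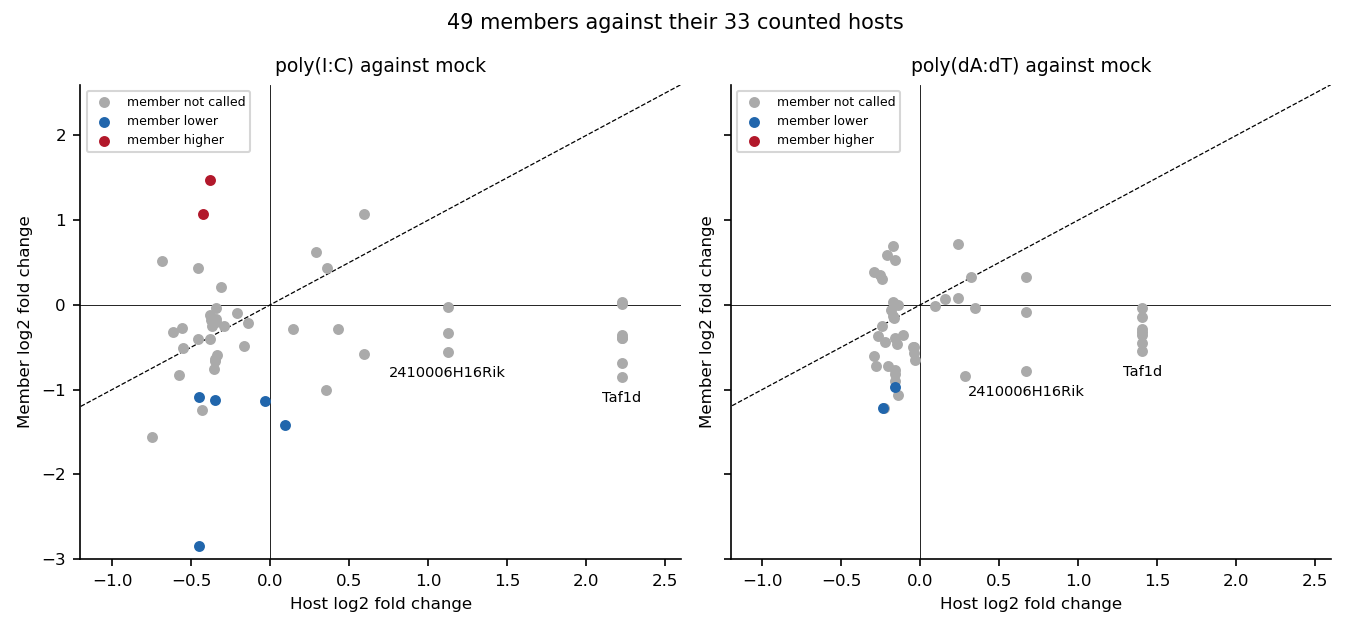
Fitted log2 fold change of 49 members (vertical axis) against that of their 33 counted hosts (horizontal axis) for poly(I:C) against mock (left) and poly(dA:dT) against mock (right). The dashed line marks equal change, and colour marks the member's call. The 7 members in Taf1d and 3 in 2410006H16Rik lie below the line at the right, the closest of the 2410006H16Rik members being Snord49a with poly(dA:dT) at a difference of -0.34, and Snord58b lies above it with poly(I:C).

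The proteins that build and protect snoRNA particles did not move as 1 group. Among the box H/ACA core proteins, 3 of 4 were lower and 0 higher in both comparisons with mock. For all genes tested the shares were 33.6% lower and 37.3% higher with poly(I:C), and 23.6% lower and 24.2% higher with poly(dA:dT). The dyskerin gene Dkc1 was at 156.6 ± 3.21 CPM with poly(I:C), 174.0 ± 5.01 CPM with poly(dA:dT) and 197.4 ± 4.22 CPM in mock. Its partners Nhp2 and Nop10 were at 125.5 ± 1.5, 150.9 ± 2.79 and 176.6 ± 5.97 CPM, and at 17.99 ± 0.24, 25.4 ± 0.827 and 29.999 ± 1.42 CPM (SD, n = 3 each). Their log2 fold changes in poly(I:C) against mock were -0.33 for Dkc1, -0.49 for Nhp2 and -0.74 for Nop10, beside a median of 0.06 over all genes tested. Gar1 was not called under TMM scaling (-0.03 ± 0.04, SE, in poly(I:C) against mock, edgeR adjusted p = 0.573) and was called higher in that comparison under total counts. Of the box C/D core proteins, 2 were higher and 2 lower with poly(I:C), Nop56 (0.53) and Nop58 (0.21) against fibrillarin (-0.36) and Snu13 (-0.36) on the log2 scale. With poly(dA:dT), Nop56 was higher and Fbl and Snu13 lower.

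Among 11 assembly factors, poly(I:C) gave 3 higher, Nufip1 (0.77), Znhit6 (0.66) and Shq1 (0.64), and 5 lower, among them the AAA+ ATPase genes Ruvbl1 (-0.29) and Ruvbl2 (-0.34). Poly(dA:dT) gave 3 higher and 3 lower. This list shifted with scaling, to 4 higher and 3 lower, and to 5 higher and 0 lower, under total counts. All 4 Cajal body genes were higher with poly(I:C) and 3 with poly(dA:dT), beside 37.3% and 24.2% of all genes tested. Wrap53, which brings scaRNAs and telomerase RNA to Cajal bodies, was at 59.3, 63.1 and 62.1 CPM with poly(I:C), 36.9, 36.3 and 33.2 CPM with poly(dA:dT) and 21.1, 21.8 and 21.02 CPM in mock, log2 fold changes of 1.53 ± 0.05 (SE, edgeR adjusted p = 4.35e-54) and 0.73 ± 0.06 (edgeR adjusted p = 8.81e-23). Wrap53 overlaps Trp53 on the opposite strand, and without strand their reads cannot be told apart. The single scaRNA member, Gm25492 in Bud23, had 5, 5 and 2 counts with poly(I:C), 2, 4 and 5 with poly(dA:dT) and 9, 3 and 3 in mock, and was not called.

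Of 9 genes that open lariats or trim RNA ends, 6 were higher and 0 lower with poly(I:C), and 4 higher and 1 lower with poly(dA:dT). They included the debranching enzyme Dbr1 (log2 0.27 in poly(I:C) against mock), the exonucleases Xrn1 (0.48) and Xrn2 (0.19) and the nuclear exosome subunit Exosc10 (0.48). Of 8 genes of nonsense-mediated decay, which degrades many spliced non-coding snoRNA hosts, 5 were higher and 2 lower with poly(I:C), and 3 higher and 0 lower with poly(dA:dT). Smg1 (0.56) and Upf2 (0.45) were higher and Upf1 (-0.24) lower with poly(I:C). Of 7 proteins listed with the U3 particle, which takes part in the cleavage of pre-ribosomal RNA, 6 were higher and 1 (Imp3, -0.40) lower with poly(I:C), and 2 higher and 0 lower with poly(dA:dT). Total-count scaling raised the counts of higher calls, in poly(I:C) and poly(dA:dT), to 9 and 5 of 9 trimming genes with 0 lower, to 7 and 6 of 8 decay genes, and to 6 and 5 of 7 U3 proteins. These shifts were small beside those of Taf1d. Against mock, 70.9% of all genes tested were called with poly(I:C), 37.3% higher, and 47.8% with poly(dA:dT), 24.2% higher.

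Other classes of small RNA are given beside the members, with no test between classes. All snRNA genes together were at 5.97 to 7.23 CPM with poly(I:C), 3.98 to 5.44 CPM with poly(dA:dT) and 4.43 to 4.74 CPM in mock, with poly(I:C) above both. Genes of the type misc_RNA were at 6.69 to 7.53, 4.29 to 4.97 and 3.99 to 4.21 CPM. Genes annotated as miRNA were at 379.8 to 442.8, 343.5 to 488.8 and 418.5 to 513.9 CPM, with all groups overlapping and ratios of the means to mock of 0.868 and 0.940. Ribozyme genes were at 0.193 to 0.643, 0.436 to 0.643 and 0.180 to 0.790 CPM, also overlapping. The 68 histone cluster genes, whose main transcripts lack a poly(A) tail, were at 461.8 to 466.8, 109.9 to 118.6 and 40.6 to 43.4 CPM. The kit selects polyadenylated RNA and mature snoRNAs carry no such tail, so counts here come from what RNA extraction and that selection let through. How much RNA of 64 to 246 bases the RNeasy extraction kept was not measured. The share of mature snoRNA, intron-retaining host RNA and other precursors in the counts was not measured either.

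At the edge of the rule, the least counted members were Gm24727 and Snord7 with 34 counts each and Gm22771 with 31, and the genes just outside were Snora21, Snora23 and Snora78 with 29 each. Snora78 had 0, 5 and 2 counts with poly(I:C), 4, 4 and 3 with poly(dA:dT) and 2, 6 and 3 in mock. At this size counting error is wide, as it is for AF357399 with 35 counts, and 27 of the 62 members had at least 100 counts. Among those 27, the fitted value was negative for 23 in poly(I:C) against mock and for 25 in poly(dA:dT) against mock.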

How the data were processed

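The deposited files hold raw counts per Ensembl gene, 1 file per library, used as deposited by the authors. The submitters' processing notes list GRCm38.p4 as the build and name TopHat2 (2.1.0), HTSeq and DESeq2. For the annotation release, strand setting, overlap mode and multi-mapping rule, the sources used here give nothing. Per the labels' protocols, RNeasy total RNA went into TruSeq RNA libraries, a kit that does not mark strand.

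Gene types, positions, hosts and sequences came from GENCODE M21. A host is a gene of another type on the same strand whose span contains the member. Genes with at least 30 summed counts (15734) were fitted in edgeR 4.0.16 (R 4.3.3), with 1 mean per group, TMM scaling, the robust quasi-likelihood test (two-sided) and Benjamini-Hochberg adjustment over all genes, threshold 0.05. This filter was used in place of filterByExpr, which would leave 34 of the 62 members. Fold changes used a prior count of 0.125, and their SE is the log2 fold change over the square root of F. Alternatives were DESeq2 1.42.0, other scalings, filters and memberships, each library left out, and a replicate block. On simulated counts for poly(I:C) against mock over 15584 genes, 90% of 2-fold rises, 76% of 2-fold falls and 0.0195% of unchanged genes were called. The 200 changed genes were drawn from all genes fitted, while the members had a median of 78 summed counts. The rates for genes with so few counts were not measured.

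For single values per library, 3 against 3 libraries cannot go below an exact permutation p of 0.1, and no p is printed for sums or ratios over members. Named were the 8 most counted members, up to 6 called rises and falls per comparison, their hosts, hosts with at least 3 members, genes at the count limit, and called genes of the protein lists. Members named beyond this, such as those of one host, were chosen after their values were seen. Members and lists were chosen with earlier results of these data known. The labels name no batch and no separate cultures for the replicates. P-values therefore measure only how far these libraries differ, and that spread may be technical. Replicates differed by more than sampling noise, with a chi-square per degree of freedom of 1.64 to 2.10. Intervals and floors reflect counting error alone, because reads were not tied to single molecules. Results on some genes and 1 sequence are not reported here.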

Additional observations from a re-analysis of the deposited data

How the results depend on the processing

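In poly(I:C) against mock, the 9 lower calls became 5 with DESeq2 and 4 among members that overlap no exon of another gene, and 6 to 9 with 1 library left out. The 2 higher calls became 1 with filterByExpr, without a filter, with DESeq2 and among members with at least 100 counts, and 1 to 2 with 1 library left out. In poly(dA:dT) against mock, the 5 lower calls became 2 with total counts, 3 without a filter, 2 with DESeq2 and 1 among members that overlap no exon, and 2 to 6 with 1 library left out. The 0 higher calls became 1 (Snord55) with total counts. In poly(I:C) against poly(dA:dT), the 2 lower calls became 1 with filterByExpr, with DESeq2 and among members with at least 100 counts, and 1 to 2 with 1 library left out.

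The difference in members' counts relative to total counts (plain CPM) was -7.81 in poly(I:C) against mock (-8.36 to -7.33 with 1 library left out) and -7.43 in poly(dA:dT) against mock (-8.42 to -6.87). In poly(I:C) against poly(dA:dT) it was -0.38 and reversed to 0.0379 among members with at least 100 counts, with -0.94 to 0.61 over left-out libraries. The log2 ratio of summed member to summed host counts was -0.03 in poly(I:C) against mock and -0.16 in poly(dA:dT) against mock. Among members that overlap no exon it was 0.273 and 0.116, and in poly(I:C) against mock it ran from -0.0673 to 0.000486 with 1 library left out. Of the named genes, Gm23246 in poly(dA:dT) against mock was -0.18 and reversed to 0.0183 without mock replicate 1 and to 0.0182 without poly(dA:dT) replicate 3, uncalled each time, over a range of -0.42 to 0.02, and Eif5 in poly(I:C) against mock was -0.03 and reversed to 0.0936 with total counts. The cause was not tested in these cases.

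With the replicate block, 10 members were called in poly(I:C) against mock (without Snora28), 5 in poly(dA:dT) against mock and 2 between the treatments. Same-numbered libraries did not deviate together (r between -0.0112 and 0.0214), so the numbers give no pairing. Total counts moved the median log2 change of all genes in poly(I:C) against mock to 0.18, where TMM gave 0.06, and the share of called genes that were higher to 63.4%, against 52.7%. In poly(dA:dT) against mock that share was 68.0% against 50.6%. The members' medians stayed negative, at -0.22 and -0.26. Depth limits single members, with 27 of 62 members at 100 counts or more over 9 libraries.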
